A study of Saccharomyces cerevisiae with 4 samples.

Results

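Ribosome biogenesis factors are the proteins that cut, modify, fold and package pre-ribosomal RNA in the nucleolus and leave before the ribosome is finished. Those described here are the Saccharomyces cerevisiae genes whose R64 standard symbol is UTP, NOP, RRP or DBP followed only by digits. The names come from how the proteins were found: components of the U3 small nucleolar ribonucleoprotein (UTP), nucleolar proteins (NOP), factors of ribosomal RNA processing (RRP) and DEAD-box proteins (DBP). The rule found 62 genes among 5325 named genes with a value in both strains: 18 UTP, 17 NOP, 18 RRP and 9 DBP genes. All 62 R64 genes with such a symbol had exactly 1 model in the authors' table, and all 62 were tested by the authors. The members were chosen by name and not by a measured value.

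The transcriptome was sequenced in 4 libraries, 2 from the reference CEN.PK113-7D (MATa MAL2-8c SUC2) and 2 from IMX372, the minimal glycolysis strain, which was built to lack the minor paralogs of glycolysis and alcoholic fermentation. IMX372 has the same MATa MAL2-8c SUC2 background with the alleles ura3-52 and his3-1 and a mutant leu2 allele. Its label lists 13 disrupted genes: of glucose phosphorylation hxk1::KlLEU2 and glk1::SpHis5, of the glyceraldehyde phosphate step tdh1::KlURA3 with tdh2, of the mutase and enolase steps gpm2, gpm3 and eno1, of the pyruvate steps pyk2 with pdc5 and pdc6, and of alcohol dehydrogenase adh2, adh4 and adh5. The reference carries neither the auxotrophic alleles nor the heterologous markers, so what these do and what the disruptions do cannot be told apart. The cultures were aerobic bioreactor batches in synthetic medium (glucose 20 g/L, pH 5, 30 °C), sampled in mid-exponential growth.

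The deposited table holds 1 FPKM (a read count scaled by the length of the gene model and by the mapped reads of the library) per gene and strain, pooled by the authors, so no value has an SD or n. The labels describe 51-base reads, and no read number per gene is given, so the depth behind a value is unknown. FPKM is relative to all mapped RNA, so a change of 1 gene per cell and a change of total RNA per cell cannot be told apart. Of the 13 deleted genes, GPM3 alone was tested, with an FPKM of 57.7 in the reference and 0 in the minimal glycolysis strain, and 10 others are listed at 0 in both strains, so their rows check nothing about the labels. In the authors' deposited table a gene was called different at an adjusted p (q) of at most 0.05. This holds for 40 of the 5325 genes, or 0.751%.

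In growing yeast the ribosome assembly genes are known as 1 large co-expressed set, switched together by nutrient and growth signals through Sfp1, Sch9 and the repressors Stb3, Dot6 and Tod6. The early small-subunit precursor, the SSU processome, assembles on the nascent transcript from the UtpA, UtpB and UtpC subcomplexes and the U3 particle. The large-subunit precursor uses a separate set of NOP, RRP and DBP proteins, and the RNA exosome trims the leftover spacer RNA.

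None of the 62 members was called different, beside 0.751% of all genes. Cuffdiff's adjusted p (q) across all models, as given in the authors' deposited table, was 0.998 for each of them. Log2 ratios, here always of the FPKM in minimal glycolysis over that in the reference, ran from -0.12 for DBP1 to 0.36 for RRP36, which is 0.920-fold to 1.28-fold. The smallest change called in any gene of the table was 1.57-fold, beyond the range of every member. At an unadjusted p under 0.05 in the authors' deposited table there were 3 members, all with a ratio above 0, and 0 with a ratio below it. Over all genes 1.86% met that mark with a ratio above 0 and 1.26% with a ratio below.

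Within these small ratios the members sat mostly on the upper side. Their median log2 ratio was 0.14, beside 0.011 over all genes, and 54 of 62 (87.1%) had a ratio above 0, beside 53.0% of all genes. The upper quartile of all genes lay at a log2 ratio of 0.11, and 39 members exceeded it. Below the lower quartile of all genes, at -0.085, lay 3 members, UTP10, UTP20 and DBP1. These counts describe the pooled libraries, and the choice of members allows no test of them.

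**Figure D1:**
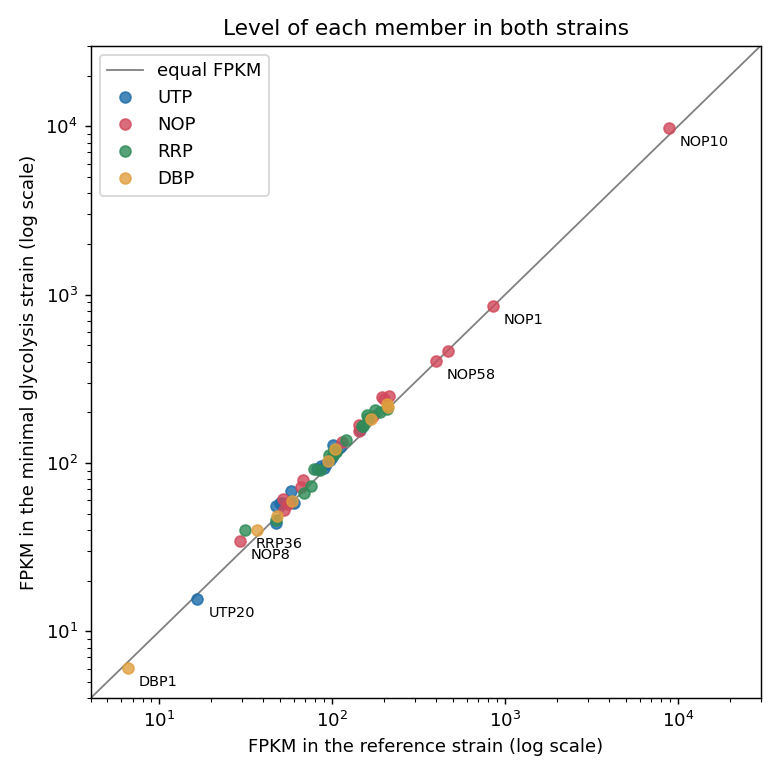
FPKM of each of the 62 members in the reference (x axis, log scale) and the minimal glycolysis strain (y axis, log scale), coloured by name family, with 1 pooled value per strain and no error bars. The points follow the line of equal FPKM from DBP1 at 6.56 to NOP10 at 8873 in the reference.

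The 4 families shared this pattern. The median log2 ratio was 0.14 for UTP, 0.15 for NOP, 0.15 for RRP and 0.10 for DBP. The SD of the log2 ratio across the genes of a family was 0.12 for UTP, 0.11 for NOP, 0.12 for RRP and 0.098 for DBP, wider than any gap between the family medians. Ratios above 0 were found for 15 of 18 UTP, 16 of 17 NOP, 15 of 18 RRP and 8 of 9 DBP genes. The ranges of the families overlapped over most of their length, and no difference between them was tested.

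**Figure D2:**
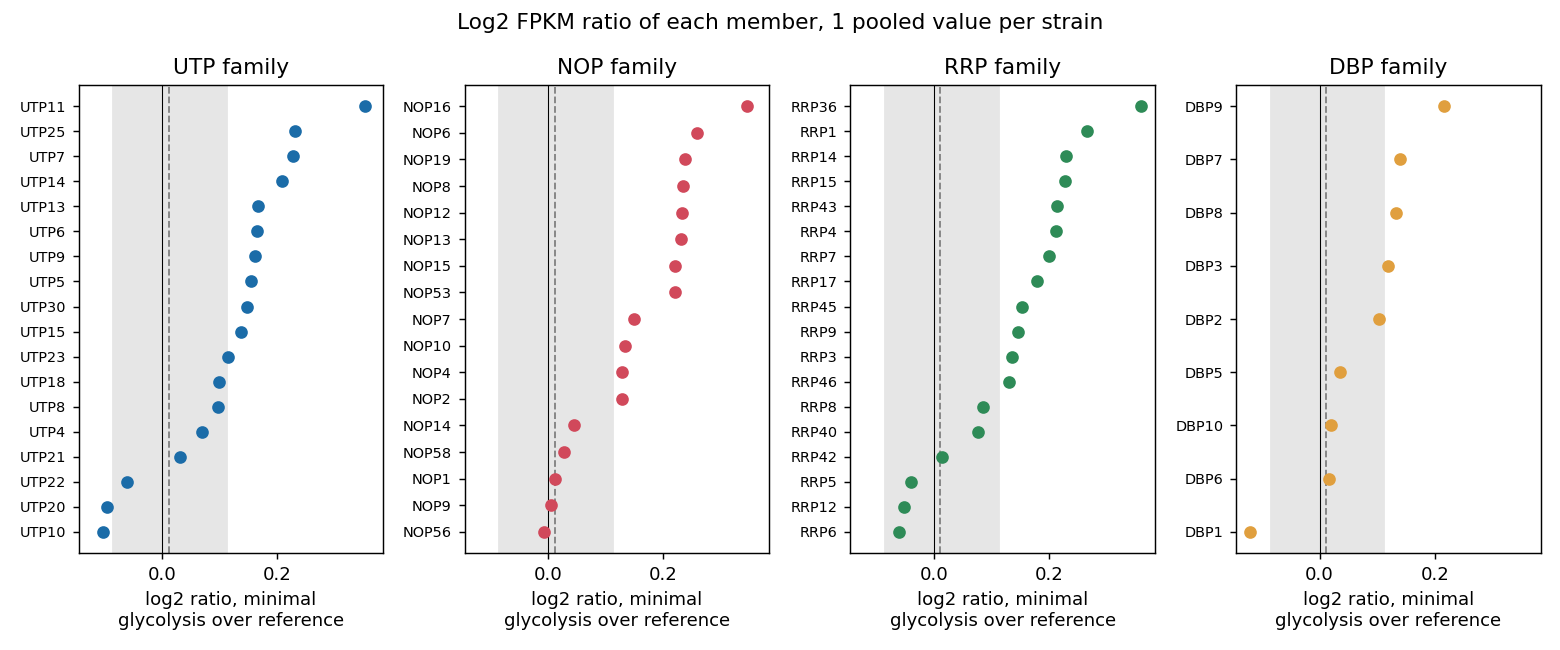
Log2 ratio of FPKM, minimal glycolysis over reference, for each member, sorted within its name family. The grey band spans the lower to the upper quartile of all genes, the dashed line their median of 0.011 and the solid line 0. UTP11, NOP16 and RRP36 stand at the upper end of their families at 0.35, 0.35 and 0.36.

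The UTP genes had a median FPKM of 84.1 in the reference and 92.8 in the minimal glycolysis strain, between 16.6 for UTP20 and 144 for UTP23 in the reference. UTP23, a processome factor, had 156 in the minimal glycolysis strain, and UTP9, second in level, had FPKM values of 111 and 124. UTP11, a small protein of the SSU processome (YKL099C, chromosome 11, 255687 to 256439 on the CEN.PK113-7D assembly), had an FPKM of 101 in the reference and 128 in the minimal glycolysis strain. Its log2 ratio of 0.35 came with an unadjusted p of 0.0362 in the authors' deposited table. UTP25, also of the SSU processome, had FPKM values of 47.1 and 55.3 and was second in the family at a log2 ratio of 0.23. UTP7 and UTP14, the latter known as an activator of a helicase that removes U3, followed with log2 ratios of 0.23 and 0.21.

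At the other end stood the largest scaffolds of the family. UTP10 (YJL109C, chromosome 10, 194545 to 199854), the longest UtpA subunit, had FPKM values of 47.1 and 43.9 and a log2 ratio of -0.10. UTP20 (YBL004W, chromosome 2, 228268 to 235749), a very large repeat protein, had FPKM values of 16.6 and 15.6 and a log2 ratio of -0.096. UTP22, of the UtpC subcomplex, was the third UTP gene with a ratio below 0, at -0.062. The other UTP genes, UTP4, UTP6, UTP15, UTP18, UTP21, UTP23, UTP30, UTP5, UTP8, UTP9 and UTP13, lay between 0.030 for UTP21 and 0.17 for UTP13.

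The 7 UtpA genes, which bind the start of the pre-ribosomal RNA, had a median log2 ratio of 0.097, with 5 above 0. UTP9 and UTP5 lay highest in it at 0.16 and 0.15, and NAN1, known also as UTP17, at -0.043. The 6 UtpB genes, which bind U3 and the pre-ribosomal RNA, had a median of 0.081, with UTP13 highest at 0.17 and DIP2, known as UTP12, lowest at -0.016. The 7 UtpC genes include the casein kinase 2 subunits CKA1, CKA2, CKB1 and CKB2, which have many other substrates, and had a median of 0.13. After the correction for coding length described further on, the medians of the UtpA, UtpB and UtpC genes were 0.13, 0.11 and 0.043, so the order of the lists depends on it. None of these 3 lists held a called gene, and at an unadjusted p under 0.05 they held RRP36 alone.

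NOP10 (YHR072W-A, chromosome 8, 234820 to 234996), a small subunit of the box H/ACA particles that pseudouridylate ribosomal RNA, had an FPKM of 8873 in the reference and 9742 in the minimal glycolysis strain. Its model is 177 bases long, and the 30 genes with a model under 200 bases had a median FPKM of 8011 in the reference, beside 63.1 over all genes. The part of the short length in this level was not tested. NOP1 (chromosome 4, 426310 to 427293), the fibrillarin methyltransferase of box C/D particles, followed with FPKM values of 849 and 856. NOP56 (chromosome 12, 531025 to 532539) and NOP58 (chromosome 15, 896718 to 898253), its partners in the same particle, had 466 and 396 in the reference and 463 and 403 in the minimal glycolysis strain.

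The genes of the 3 abundant box C/D proteins had ratios near 0. NOP1, NOP56 and NOP58 had log2 ratios of 0.012, -0.0075 and 0.027. NOP10, of the box H/ACA particles and higher in FPKM than these 3, stood at 0.13. The remaining 13 NOP genes, NOP10 aside, had a median log2 ratio of 0.22, and all 13 lay above 0. This grouping was made after the values were seen and carries no test. NOP16 (YER002W, chromosome 5, 154861 to 155556), a factor of 60S assembly, led with FPKM values of 194 and 247, a log2 ratio of 0.35 and an unadjusted p of 0.0357 in the authors' deposited table. NOP6, known from 40S assembly, had FPKM values of 200 and 239 and a log2 ratio of 0.26. NOP8, the least abundant of the family, had 29.3 and 34.5. NOP19, NOP12, NOP13, NOP15 and NOP53, the last of which docks the exosome on the large-subunit precursor, lay between 0.22 and 0.24. NOP2, an RNA methyltransferase, and NOP7, of the complex with Erb1 and Ytm1, had log2 ratios of 0.13 and 0.15. NOP4, a 60S factor, stood at 0.13, and NOP14, a processome protein, at 0.045. NOP9, an RNA-binding protein of 40S assembly, had FPKM values of 52.5 and 52.7 and a log2 ratio of 0.0049.

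Among the RRP genes, RRP36 (YOR287C, chromosome 15, 850843 to 851745), a processome component, had the largest ratio of all members, with FPKM values of 31.2 and 40.1. It was the least abundant RRP gene in the reference. Its unadjusted p in the authors' deposited table was 0.0472. RRP1, a 60S factor (chromosome 4, 616584 to 617420), had FPKM values of 159 and 192 and a log2 ratio of 0.27. RRP14 and RRP15, also of 60S assembly, both stood at 0.23. RRP7, RRP17, RRP9, RRP3 and RRP8, of which RRP8 is a ribosomal RNA methyltransferase and RRP3 a DEAD-box helicase of 40S assembly, ran from 0.20 for RRP7 to 0.085 for RRP8. The 3 RRP genes with a ratio below 0 were RRP6, the nuclear exonuclease of the exosome, at -0.061, RRP12, an export factor, at -0.052, and RRP5, needed for both subunits, at -0.039. Their FPKM values in the reference were 68.9, 75.3 and 47.3, and those in the minimal glycolysis strain were 66.0, 72.6 and 46.0.

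The log2 ratios of the exosome members ran from -0.061 for RRP6 to 0.21, and no difference between them was tested. RRP4 and RRP43 had log2 ratios of 0.21, RRP45 and RRP46 of 0.15 and 0.13, RRP40 of 0.076 and RRP42 of 0.015. RRP42 was also the most abundant RRP gene, at an FPKM of 206 in the reference and 208 in the minimal glycolysis strain, and RRP40 was second at 189 and 199. Over the 14 exosome and cofactor genes, subunits outside the name rule included, the median log2 ratio was 0.18, 12 lay above 0 and none was called. MPP6, a nuclear cofactor, was highest at 0.34, with an unadjusted p of 0.0528 in the authors' deposited table. The catalytic subunit DIS3, known as RRP44, stood at -0.040.

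The DBP family consists of RNA helicases with differing jobs. DBP9 (YLR276C, chromosome 12, 680079 to 681863), which acts in 60S assembly, had FPKM values of 104 and 121 and the highest log2 ratio of the family, 0.22. DBP7, also of 60S assembly, had FPKM values of 36.5 and 40.2, and DBP7, DBP8 and DBP3 followed at log2 ratios of 0.14, 0.13 and 0.12. DBP10 and DBP6, both of 60S assembly, stood at 0.020 and 0.016, and DBP6 had FPKM values of 58.7 and 59.4. DBP5, best known for messenger RNA export, and DBP2, best known from messenger RNA assembly and decay, were the most abundant helicases of the family. They had FPKM values of 210 and 208 in the reference and of 215 and 223 in the minimal glycolysis strain. DBP1 (YPL119C, chromosome 16, 324325 to 326178), a paralog of the translation initiation helicase Ded1, was the scarcest member, with FPKM values of 6.56 and 6.03. Without these 3 genes the median log2 ratio of the family was 0.13. The model of DBP2 is 1305 bases long against 1641 coding bases in 2 segments in R64, so its value covers part of the gene. No other member differed from its R64 coding length by over 3 bases.

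Coding length, here the span of a model from start to end, moved with the ratio. Spearman's rho between log2 ratio and coding length was -0.53 across the 62 members and -0.34 across all 5325 genes, where the points share the same libraries and no p is given. The 18 members under 1000 bases had a median log2 ratio of 0.19, and all 18 lay above 0, beside 0.071 and 67.4% for all genes of that length. From 1000 to 2000 bases 25 of 27 members lay above 0 with a median of 0.15, beside 0.0080 and 52.1% of all genes. At 2000 bases or more 11 of 17 lay above 0 with a median of 0.030, beside -0.055 and 31.0% of all genes. In each of the 3 length classes the members' median was thus above that of all genes. Of the 8 members with a ratio below 0, 6 were at least 2000 bases long, the other two being NOP56 and DBP1.

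**Figure D3:**
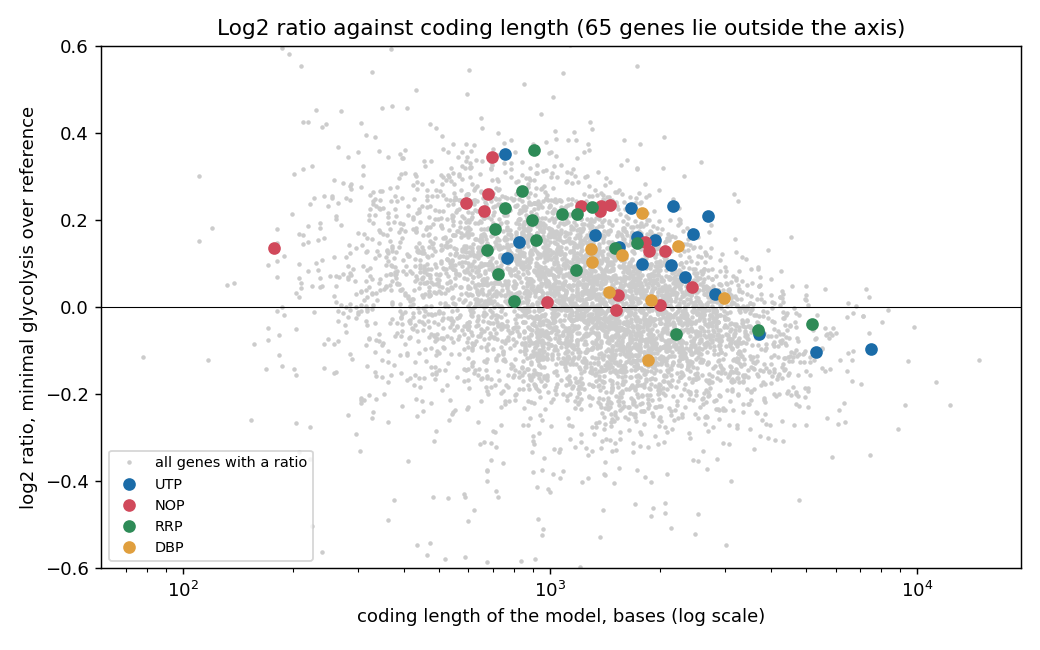
Log2 ratio against coding length (log scale) for all genes in grey and the members coloured by family. The cloud of all genes slopes downward (rho -0.34), and 56 of 62 members lie above the median of genes of their length. The axis leaves out 65 genes beyond a log2 ratio of 0.6 in either direction.

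Taking from each gene the median of all genes in the same twentieth of coding length left medians of 0.13 for UTP, 0.15 for NOP, 0.13 for RRP and 0.085 for DBP. After this correction 56 of 62 members then lay above 0. The median of all genes is 0 on that scale. A correction by expression level in place of length gave lower medians, 0.089 for UTP, 0.10 for NOP, 0.11 for RRP and 0.055 for DBP. Under this second correction 48 of 62 members lay above 0. The part of length and level in these ratios was not tested.

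**Figure D4:**
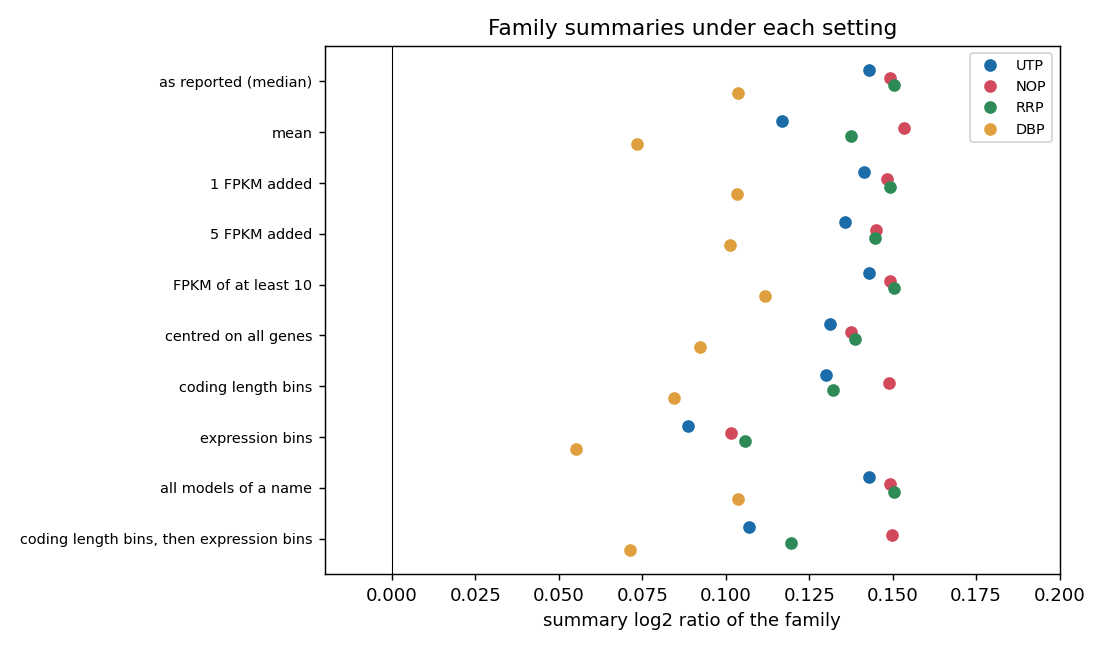
Summary log2 ratio of each name family as reported and under 9 other settings. All genes of a family are included, except that an FPKM of at least 10 leaves out DBP1. The values run from 0.055 for DBP under expression bins to 0.15 for NOP, and DBP is lowest of the 4 under each setting shown.

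Assembly factors outside the name rule gave a like picture. The 33 other 40S factors had a median log2 ratio of 0.16, and 30 (90.9%) lay above 0, beside 53.0% of all genes. FCF2, needed for early 18S cleavage, was highest at 0.41, with FPKM values of 95.3 and 127, and KRE33, an RNA cytidine acetyltransferase, lowest at -0.062. The 44 other 60S factors had a median of 0.16, and 40 (90.9%) lay above 0. MDN1, also on that list, was not among the analysed genes under that symbol. EBP2, a nucleolar 60S factor, stood highest at 0.43, with FPKM values of 146 and 196, and URB2 lowest at -0.12. No analysed gene of either list was called by Cuffdiff in the authors' deposited table. At an unadjusted p under 0.05 there were 5 genes with a ratio above 0, FCF2, EBP2, REI1, NSA2 and MAK16, and 0 with a ratio below. Over all genes the shares at that mark were 1.86% with a ratio above 0 and 1.26% with a ratio below.

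The box C/D list with the U3 factor RRP9 had a median log2 ratio of 0.027, with RRP9 highest at 0.15 and NOP56 lowest. Its subunit SNU13, which is also part of the spliceosome, stood at 0.068. The 4 box H/ACA genes had a median of 0.11, from 0.069 for GAR1 to 0.23 for NHP2. A group of 15 genes, also gathered after the values were seen, carries a UTP, NOP, RRP or DBP name only as an R64 synonym. Their median was 0.064, with 9 above 0. All but NPL3 and PIH1 are also in the lists described above, so the 15 form no separate set. Of the 15, HCA4, known as DBP4, which frees the U14 RNA, stood at 0.15. NPL3, which binds messenger RNA, and PIH1, a chaperone cofactor, stood at -0.033 and -0.031.

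**Figure D5:**
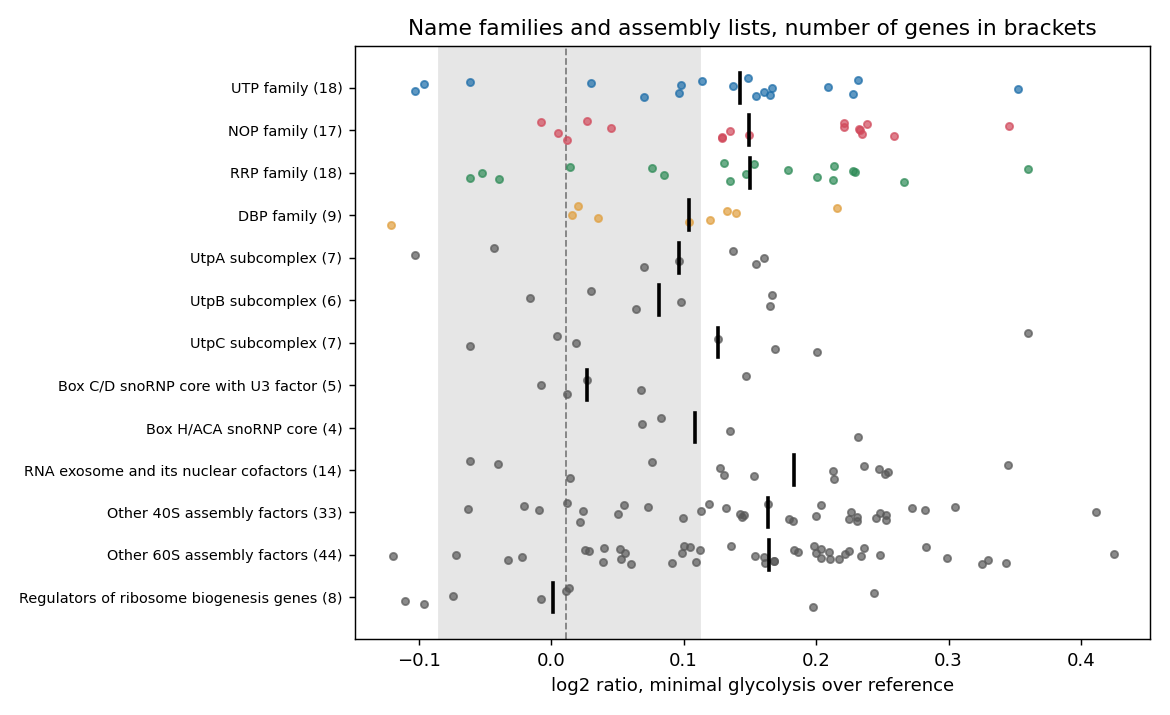
Log2 ratio of each gene in the 4 name families (coloured) and in 9 lists of assembly genes and regulators (grey), with a black bar at each median. Members that also belong to a list are plotted again in grey. The grey band spans the lower to the upper quartile of all genes, and the dashed line marks their median. The assembly lists have medians between 0.027 and 0.18, and the regulators one of 0.0017.

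The 8 listed regulators, of ribosome assembly genes or of ribosomal protein genes, had a median log2 ratio of 0.0017, with 4 above and 4 below 0. IFH1, a co-activator of ribosomal protein genes, was highest at 0.24, and CRF1, a co-repressor of them, lowest at -0.11. TOD6 stood at 0.20, SFP1 at 0.011, DOT6 at -0.0079, SCH9 at -0.074 and STB3 at -0.096. None was called, and none had an unadjusted p under 0.05 in the authors' deposited table. In groups chosen after the values were seen, the 110 cytosolic ribosomal protein genes had a median of 0.10, with 93 (84.5%) above 0. Of all genes 53.0% lay above 0. Corrected for coding length the ribosomal protein genes had a median of 0.029, with 70 above 0, and corrected for expression level one of 0.044. That length is the span of the model, in which any intron counts. How far introns shift the corrected value of the ribosomal protein genes was not tested. The 7 RNA polymerase I subunit genes named RPA had a median of 0.11, or 0.085 corrected for coding length and 0.080 for expression level. For all 62 members the medians under these corrections were 0.13 and 0.095. No difference between these groups and the members was tested.

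The members were spread over 14 chromosomes, with 12 on chromosome 4. No other model of the table overlapped a member. Overlap of transcripts beyond the ends of the models was not tested. RRP43 lies 8 models beyond the block of neighbouring raised genes from MAK32 to RHB1 on chromosome 3, known from an earlier look at these data, and no other member lay within 10 models of it or of the like block from PUP3 to RTT105 on chromosome 5. RRP43 had a log2 ratio of 0.21, and whether the block has a part in it was not tested. Of 8 neighbouring pairs of assembly genes in the table, 5 held a member and none held a pair of them. In the pair RRP15 and NOC4 the log2 ratios were 0.23 and 0.012, and in PWP1 and NOP56 they were 0.19 and -0.0075. UTP9 and RIX1 had 0.16 and -0.022, RSA3 and UTP13 had 0.21 and 0.17, and RRP3 and SSF1 had 0.14 and 0.20.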

How the data were processed

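The authors' deposited table, in the layout of Cuffdiff, holds per gene model an FPKM for each strain, pooled over its libraries, and the log2 ratio, p-value and q-value of the comparison. It also holds a signed fold and a test statistic or score by the authors, per the file headers, which were not used. The submitters' processing notes name BWA (0.5.9-r16), SAMtools (0.1.7-r510) and CASAVA (1.8.2) beside Cuffdiff and Cufflinks, without their roles. All analyses rested on the CEN.PK113-7D genome per the labels, and the library kit does not mark strand. The labels do not say whether the libraries of a strain come from separate cultures, so p-values may measure technical spread only. The number of unused columns with per-sample values was 0.

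Symbols were taken from R64 (S288C) by systematic name. For each name the longest tested model was kept, which left 5325 genes. Starts were counted from 1. Lengths are spans from the start to the end of a model, any intron within it included. They divide by 3 in 97.2% of models and are called coding lengths. Log2 ratios and folds were computed from FPKM with no pseudocount (Python 3.11.15, pandas 2.3.3) and match the deposited log2 values to within 1.31e-05. No test across libraries can be run on pooled values. Recomputed q-values and the correction in 20 equal-count bins of coding length were tested on simulated data. The corrections that use expression level, in bins of the same kind, were not. Values given in full were those of members with an unadjusted p under 0.05 and of the 2 highest and 2 lowest log2 ratios, the 2 highest FPKM and the lowest FPKM of each family, with, for each other list, the highest and the lowest log2 ratio. Further members were named to describe roles. The members, lists and rules were chosen with earlier results of these data known. Promoter motifs and protein sequences were not analysed here, since no genome of the CEN.PK113-7D assembly was used.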

Additional observations from a re-analysis of the deposited data

How the results depend on the processing

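Each family median was recomputed with the mean in place of the median, 1 or 5 FPKM added, an FPKM of at least 10, centring on all genes, all models of a name, bins of coding length and bins of expression level. A correction for length and then expression was chosen after seeing the data. All these values stayed above 0. With no spread between libraries to go by, a change of over 1.5 times was counted, a limit also set after seeing the data. Expression bins passed it for UTP, at 0.089, and DBP, at 0.055, and the cause was not tested. No other family value passed it, and with both corrections together the median of all members was 0.12. The DBP median without DBP1, DBP2 and DBP5 was 0.13, and the RRP median without exosome subunits was 0.18. Of single members, expression bins turned the sign of 6, length bins of 8, both corrections together of 8, centring of 1 and added FPKM of 0. A turned sign or a change of over 1.5 times was more common. Of 62 members it was found for 29 under expression bins, 24 under length bins and 25 under both together. Centring gave 8, 5 FPKM added gave 1 and 1 FPKM added gave 0. The number of members called stayed 0 at a q of 0.01, with recomputed q-values and with an FPKM of at least 10, and was 3 at an unadjusted p under 0.05. Among the analysed genes of the lists, 0 were called at either q. Alternatives for promoter motifs were not run, nor was any that leaves out a library, since the table holds pooled values. No paired analysis was possible because the table gives 1 pooled value per strain. Depth per gene is unknown, so ratios of scarce genes such as DBP1 carry an error of unknown size.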
